A study of Mus musculus with 10 samples.

Results

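General genes of monocytes and macrophages were examined in RNA-seq libraries of mouse inguinal white adipose tissue (iWAT), a fat pad under the skin. The group is a list of 34 genes that mark these cells as a class, chosen by name. The choice was made with earlier results of these data known. Of these, 33 have 1 row each among the 51826 genes listed, and Itgam was not analysed here. All mice were C57BL/6 males. The F1 mice were 5 weeks old. They came from fathers fed either a control diet (CD, n = 3) or a low-protein diet (LPD, n = 3). Their mothers received the CD, as did the F1 mice themselves after weaning. The offspring of LPD fathers are called pLPD offspring. The F0 mice were 10 to 12 weeks old and had themselves been fed the CD (n = 2) or the LPD (n = 2) from weaning. The whole fat pad was used, so its RNA is a mixture from all its cells, and 1 library was made per mouse. Per the study's methods, the 3 F1 mice of a group had different mothers.

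Macrophages are phagocytes that live in every fat pad, where they clear dying cells and debris and take up lipid. Some settle in the tissue early in life and others arise from blood monocytes, and both depend on signalling through the receptor for colony-stimulating factor 1. They carry receptors for antibodies, for microbial products and for modified lipoproteins, secrete lysozyme and complement C1q, and degrade what they take up in lysosomes. Several genes of the list are also used by dendritic cells, B cells or neutrophils.

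Between 6351075 and 10044546 reads per library fell on exons, and a level of 0.299 to 0.472 CPM (exon reads scaled to a common library size) corresponds to 3 reads, a limit set by counting error alone. Of the genes analysed, 32 had enough reads to be tested, and Vsig4, with 2 to 15 reads per library, did not pass the filter on low counts. The tissue markers were in place: Adipoq, which encodes adiponectin, ranged from 1166 to 2365 CPM over the 10 mice. Ly6g, which marks neutrophils, was at 0 in 9 of the libraries and at 0.117 CPM in the other. The list of 12 neutrophil genes that holds Ly6g summed to 50.6 CPM in replicate 3 of the pLPD offspring. In the other 9 libraries this sum was 8.08 to 18.1 CPM. Exons held 62.1% to 64.0% of the reads on protein-coding nuclear genes in the F0 mice and the offspring of CD fathers. In the pLPD offspring this share was 51.6%, 58.2% and 59.3%, below every other library.

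Lyz1 and Lyz2 are neighbours on chromosome 10 and encode near-identical lysozymes, which cleave bacterial cell walls. Over 447 coding bases (GENCODE vM21), 22 bases differ and the identity is 95.1%. The start of both coding sequences is shown because the reads were 36 bases long and part of them match both genes; capitals mark the 15 differing bases of this stretch of 180.
Lyz1: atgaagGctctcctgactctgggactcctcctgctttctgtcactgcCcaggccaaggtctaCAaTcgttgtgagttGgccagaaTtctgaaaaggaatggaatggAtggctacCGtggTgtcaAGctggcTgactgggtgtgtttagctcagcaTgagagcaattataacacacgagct
Lyz2: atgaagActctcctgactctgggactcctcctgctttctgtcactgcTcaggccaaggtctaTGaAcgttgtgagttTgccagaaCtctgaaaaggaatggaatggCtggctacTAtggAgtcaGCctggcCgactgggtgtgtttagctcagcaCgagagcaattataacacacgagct
Of the 412 windows of 36 bases in the Lyz1 coding sequence, 137 also occur in Lyz2. The uniquely matching share of the exon reads was 92.6% for Lyz1 and 92.8% for Lyz2. It was lowest for Irf8, at 32.2%, so the level of Irf8 depends on how reads with several matches were assigned.

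Compared per exon length, the levels of the genes spanned a wide range. Lyz2 was the highest, with a mean of 149.9 RPKM (exon reads scaled by exon length and library size) over the 10 mice. It was followed by C1qb at 46.0, C1qa at 37.6, Ctss at 29.9 and C1qc at 20.1 RPKM. Ctss encodes cathepsin S, a lysosomal protease of antigen-presenting cells, and the C1q genes encode the 3 chains of the protein that starts the classical complement pathway. The ranges of C1qb, C1qa, Ctss and C1qc over the mice overlapped from each gene to the next in this order, whereas the lowest Lyz2 value, 96.8 RPKM, lay above the highest C1qb value, 63.4 RPKM. Trem2, a lipid receptor of macrophages, was the lowest at 0.187 RPKM, next to Vsig4 at 0.280.

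**Figure D1:**
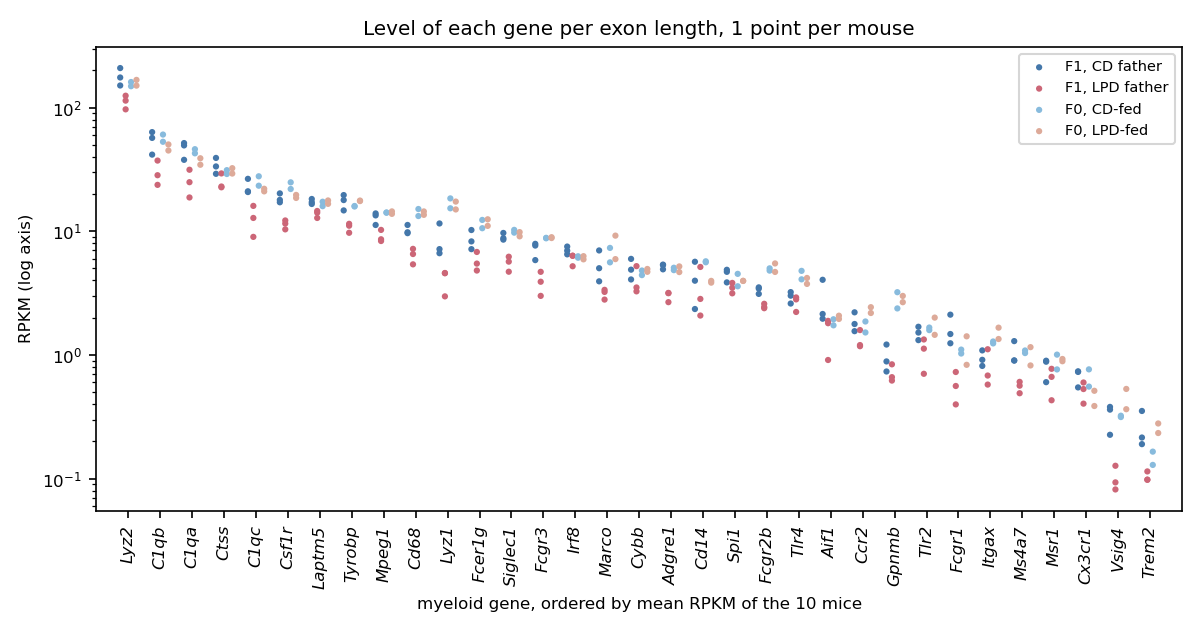
RPKM (log axis) of the 33 genes in each of the 10 mice, ordered by the mean over all mice, with 1 point per mouse and colours for the 4 groups. Lyz2 stands at the top with 149.9 RPKM on average and Trem2 at the bottom with 0.187 RPKM, and the pLPD offspring are at the low end of the points for many genes. In RPKM the median log2 fold change in F1 was -0.62 over the 32 genes tested and -0.15 over all genes (limma, 0.1 added). Lower RPKM values were thus not confined to this list, though the median of the list was further below 0.

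The first comparison asked whether the father's diet was accompanied by a different level of these genes in the offspring. Of the 32 genes tested, 7 were lower in pLPD offspring than in the offspring of CD fathers, and none was higher (edgeR quasi-likelihood test, adjusted p under 0.05). Over all 14049 genes tested, 1.17% were called, with 1.02% lower and 0.142% higher. At an unadjusted p under 0.05, 19 of the 32 were lower and none higher, where 8.76% of all genes were lower and 6.57% higher. The fold change was negative for 31 of the 32 and positive for 1, where 51.4% of all genes were positive. The median was -0.47 on the log2 scale, beside 0.0074 over all genes. These genes belong largely to the same cells, so they are not independent of each other. In 20 of the 33 genes every pLPD mouse lay below every mouse of the other group, in none above it, and in 13 the groups overlapped; over all genes tested, every pLPD mouse lay below in 10.9% and above in 9.2%. In mm10, the called genes are the protein-coding genes Adgre1 at chr17:57358686-57483529, Csf1r at chr18:61105572-61132149, Fcgr1 at chr3:96282909-96293969, C1qa at chr4:136895917-136898803, C1qc at chr4:136889804-136893065, Siglec1 at chr2:131069220-131086765 and Lyz2 at chr10:117277331-117282321. In a whole fat pad, fewer cells of a type and less RNA per cell cannot be told apart.

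**Figure D2:**
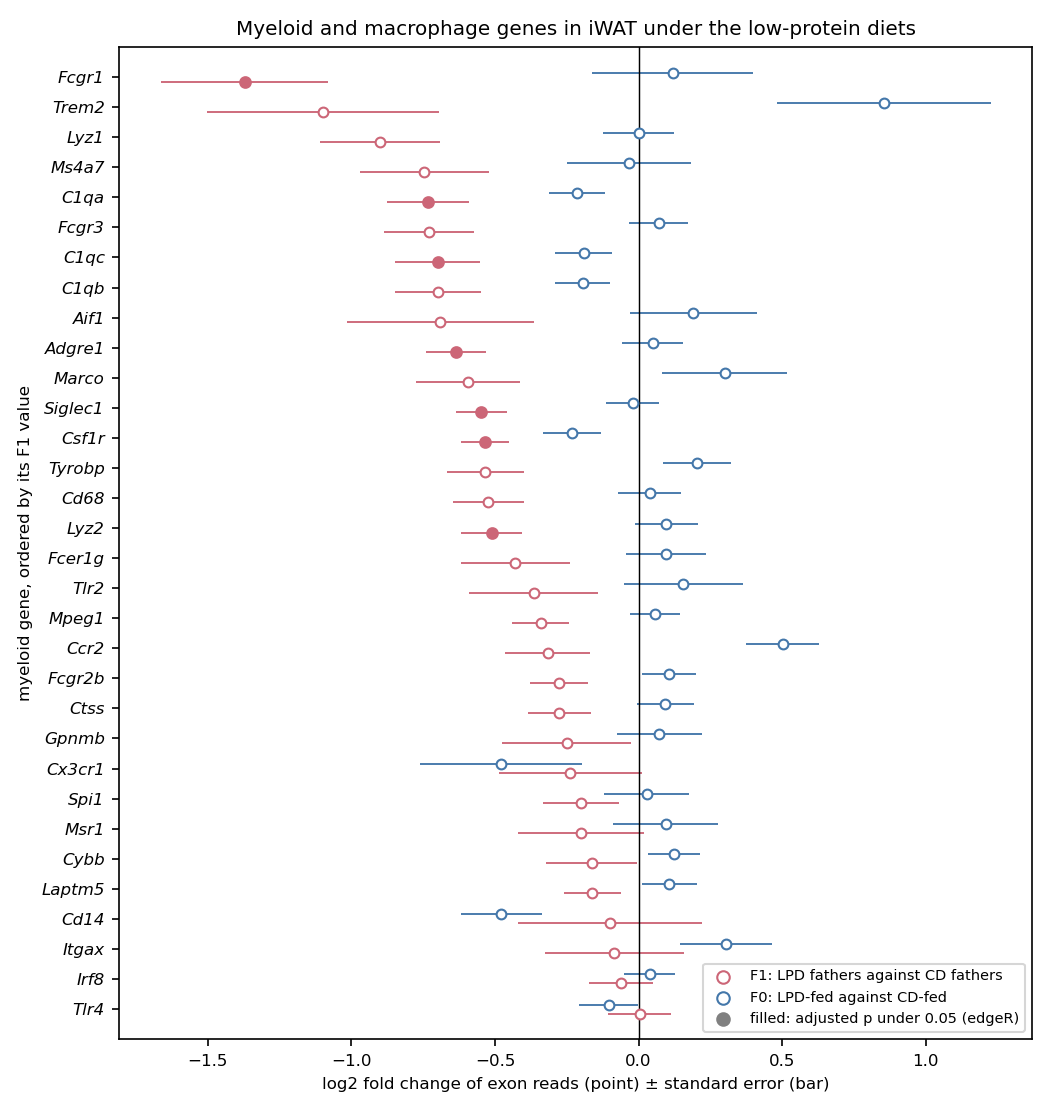
Log2 fold change (points) with standard error (bars) of the 32 genes tested, for LPD against CD fathers in F1 (red) and for LPD-fed against CD-fed mice in F0 (blue); filled points passed the adjusted threshold. In F1, 31 of the 32 points lie below 0 and 7 are filled, and in F0, 23 lie above 0 and none is filled.

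Adgre1, which encodes the macrophage surface protein F4/80, was at 34.4, 36.1 and 34.6 CPM in the offspring of CD fathers and at 21.9, 22.1 and 23.2 CPM in the pLPD offspring. The groups were far apart, with little spread within either. The log2 fold change was -0.64 (SE 0.10, edgeR adjusted p = 0.0196). Of the other genes of the macrophage surface and identity, Cd68, a lysosomal glycoprotein, had a value of -0.52 (adjusted p = 0.0683) with no overlap between groups. Ms4a7 at -0.75 (adjusted p = 0.142) and Aif1 at -0.69 (adjusted p = 0.343), which encodes the actin-binding protein Iba1, also had groups that did not overlap. Gpnmb at -0.25, Laptm5 at -0.16 and Itgax, which encodes the integrin CD11c, at -0.08 had overlapping groups.

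Csf1r, the receptor for colony-stimulating factor 1, was at 180.3, 181.1 and 198.1 CPM in the offspring of CD fathers. In the pLPD offspring it was at 127.6, 121.6 and 134.4 CPM. No pLPD mouse reached the level of any mouse of the other group, and the log2 fold change was -0.54 (SE 0.083, edgeR adjusted p = 0.0155). The chemokine receptors Ccr2, which draws monocytes from the blood, and Cx3cr1 had values of -0.32 and -0.24, and their groups overlapped. The transcription factors Spi1, which encodes PU.1, and Irf8, both needed for myeloid development, had values of -0.20 (adjusted p = 0.517) and -0.06 (adjusted p = 0.846). Both overlapped between groups: Irf8 was at 105.8, 94.9 and 106.3 CPM in the offspring of CD fathers and at 112.8, 96.4 and 82.8 CPM in the pLPD offspring.

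Fcgr1, the high-affinity receptor for immunoglobulin G, was at 8.22, 11.3 and 6.44 CPM in the offspring of CD fathers. In the pLPD offspring it was at 2.60, 4.06 and 3.27 CPM. It had the largest fold change of the 32 genes tested, -1.37 on the log2 scale (SE 0.29), with an edgeR adjusted p of 0.049996, only just under the threshold, on 17 to 98 reads per library. The other 5 genes of antibody receptors, Trem2 and their adaptors had values from -1.10 to -0.28, all under an unadjusted p of 0.05 and none past the adjusted threshold. Among them, Fcgr3, a low-affinity receptor for immunoglobulin G, had -0.73 (adjusted p = 0.0512). Tyrobp, the adaptor that carries the signal of Trem2, had -0.53 (adjusted p = 0.0816), and Trem2 had -1.10 (adjusted p = 0.220) on 7 to 26 reads. Fcer1g, the shared signalling chain of Fc receptors, had -0.43, and Fcgr2b, the inhibitory member, had -0.28. In all 6 genes the groups did not overlap.

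C1qa was at 84.6, 106.3 and 107.6 CPM in the offspring of CD fathers and at 49.2, 55.9 and 73.6 CPM in the pLPD offspring. C1qc was at 86.2, 84.0 and 102.7 CPM, against 43.9, 53.4 and 69.7 CPM. C1qb was at 97.5, 127.9 and 138.1 CPM, against 65.1, 66.6 and 91.4 CPM. In each of the 3 genes the groups did not overlap, and 1 pLPD mouse, replicate 3, was closest to the other group. C1qa, with -0.73 (SE 0.14, edgeR adjusted p = 0.0403), and C1qc, with -0.70 (SE 0.15, adjusted p = 0.0489), passed the threshold, and C1qb, with -0.70 (SE 0.15, adjusted p = 0.0512), fell just outside it. The 3 genes lie side by side on the minus strand of chromosome 4. The ratio of C1qb to C1qa in RPKM was between 1.10 and 1.46 in all 10 mice. Vsig4, a complement receptor that was not tested, was at 0.306 to 0.406 CPM in the pLPD offspring and at 0.693 to 1.21 CPM in the other group; the former is at or under 3 reads per library.

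A stretch before C1qc is shown because it holds 1 of the few matches to GAGGAAGT, a core of the DNA site bound by PU.1, among the promoters of the list. It lies at chr4:136893067-136893141 (RefSeq, GRCm38.p6, minus strand), 153 to 227 bases before the RefSeq start, and capitals mark the match on the opposite strand.
C1qc: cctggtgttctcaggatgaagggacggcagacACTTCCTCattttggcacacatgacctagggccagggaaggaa
Promoters of 300 bases, 250 before and 50 after the start, were found for 25 of the 34 genes, 28 promoters in all. GAGGAAGT occurred on either strand in 2 of the 28 (7.14%), those of C1qc and Ctss, and in 3.20% of all 32851 promoters. The composite element of ETS factors such as PU.1 and interferon regulatory factors (ETS-IRF), searched in the same way, occurred in 3 of the 28 (10.7%), those of Fcgr2b, Cd68 and Cybb, and in 2.72% of all promoters. These matches only describe the letters in this window.

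Siglec1, the sialic acid-binding receptor of tissue macrophages, was at 131.5, 143.1 and 125.8 CPM in the offspring of CD fathers and at 84.8, 95.9 and 91.4 CPM in the pLPD offspring. The groups did not overlap, and the log2 fold change was -0.55 (SE 0.089, edgeR adjusted p = 0.0196). The scavenger receptors Marco and Msr1 had values of -0.60 (adjusted p = 0.147) and -0.20 (adjusted p = 0.719). Marco was similar in the 3 pLPD mice, at 13.6 to 14.0 CPM, and between 16.3 and 27.0 CPM in the other group.

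Lyz2 was at 427.3, 476.5 and 550.4 CPM in the offspring of CD fathers and at 321.3, 354.1 and 337.4 CPM in the pLPD offspring. All 3 pLPD mice were lower, with a log2 fold change of -0.51 (SE 0.11, edgeR adjusted p = 0.0466). Lyz1 was at 18.1, 18.7 and 29.3 CPM, against 9.48, 12.5 and 13.1 CPM. Its value of -0.90 (SE 0.21, adjusted p = 0.0656) did not pass the threshold. Ctss was at 85.1, 93.8 and 106.6 CPM, against 77.7, 86.0 and 70.3 CPM, with overlapping groups and a value of -0.28 (adjusted p = 0.262). Mpeg1, a pore-forming protein of phagocytes, had -0.34 (adjusted p = 0.124), and Cybb, a subunit of the NADPH oxidase, had -0.16. The Toll-like receptors and Cd14, which sense microbial products, held no called gene: Tlr2 had -0.37, Cd14 -0.10 and Tlr4 0.003, and all 3 overlapped between groups.

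**Figure D3:**
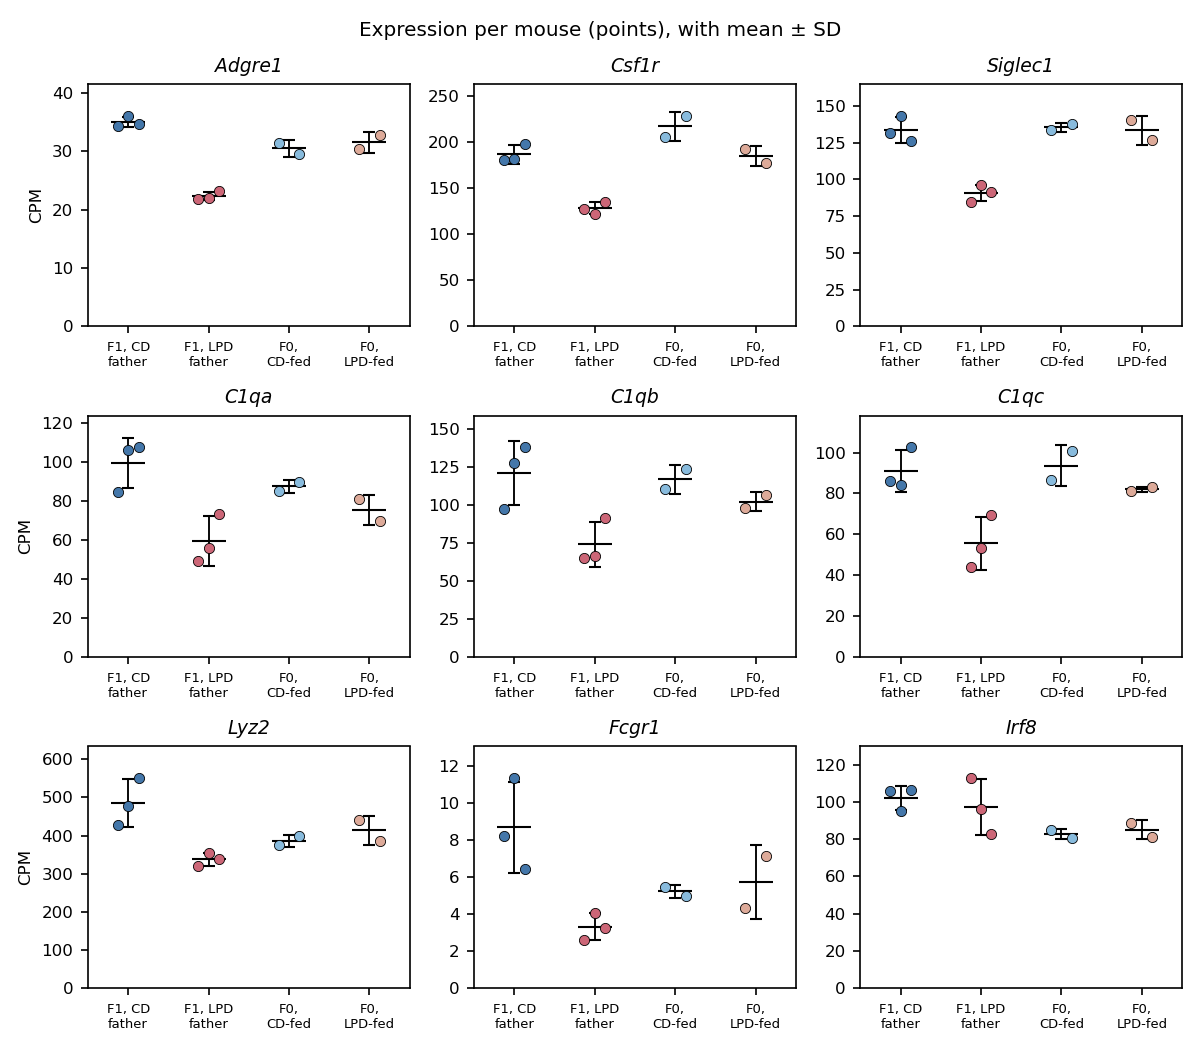
CPM of 9 genes in each mouse (points), with the mean (horizontal line) and SD (bars) of the 4 groups, n = 3 in F1 and n = 2 in F0. For Adgre1 the pLPD offspring lie between 21.9 and 23.2 CPM, below all other mice, whereas the groups overlap for Irf8.

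The count of called genes depended on single mice. It was 0 without replicate 1 or without replicate 2 of the offspring of CD fathers, and 0 without replicate 2 of the pLPD offspring. Without replicate 1 of the pLPD offspring, only Csf1r was called. Without replicate 3 of the offspring of CD fathers there were 6, and without replicate 3 of the pLPD offspring there were 7, which included Fcgr3 and C1qb but neither Fcgr1 nor Lyz2. The calls over all genes moved as well, with 144 lower when all mice were kept. Without replicate 1, 2 or 3 of the offspring of CD fathers, 17, 29 and 370 were lower. Without replicate 1, 2 or 3 of the pLPD offspring, 44, 20 and 131 were lower. The median log2 fold change stayed between -0.53 and -0.40 in these fits. The smallest p that 3 mice against 3 allow in an exact permutation test is 0.1.

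The exon share moved with the paternal diet as well. The summed level of the 33 genes was 1852, 2021 and 2153 CPM in the offspring of CD fathers and 1426, 1495 and 1490 CPM in the pLPD offspring, whose exon shares were also the lowest. With the exon share as a covariate none of the 32 genes was called (edgeR), 7 had an unadjusted p under 0.05, 26 were negative and the median was -0.38; over all genes, 11 were called in that fit. Counted over whole genes with introns, Adgre1, Csf1r, Siglec1 and Lyz2 were called, and all 33 genes tested were negative. The part of the exon share in the result was not tested beyond these fits.

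**Figure D4:**
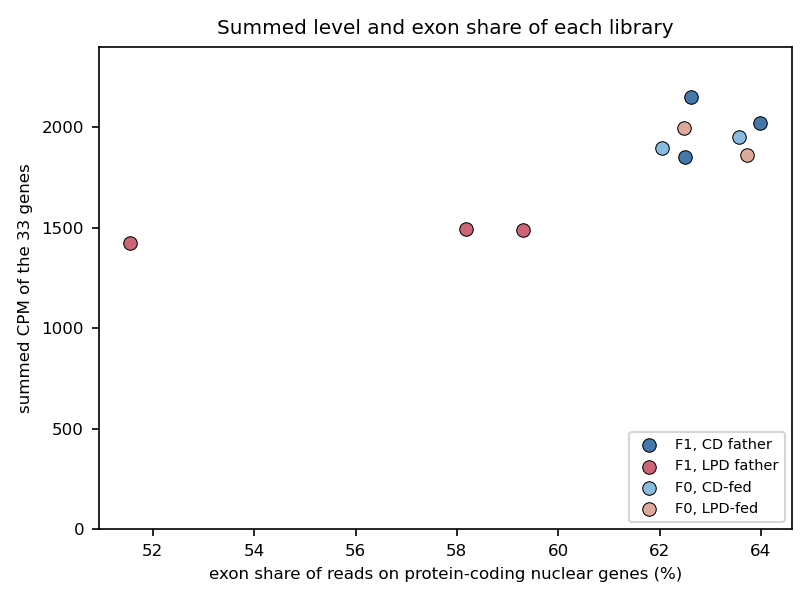
Summed CPM of the 33 genes against the exon share of reads on protein-coding nuclear genes, 1 point per mouse, coloured by group. The 3 pLPD offspring, at 1426 to 1495 CPM and exon shares of 51.6% to 59.3%, lie apart from the other 7 mice on both axes.

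The lists of other leukocytes differed in direction in F1. All 6 pan-leukocyte genes had positive values with none called, a median of 0.16, and summed levels of 1088 to 1381 CPM in the pLPD offspring against 1038 to 1189 CPM in the other group. Of 15 genes of T and NK cells, 13 were positive, none was called and 9 had an unadjusted p under 0.05. Their summed level was 418.8 to 525.0 CPM, against 355.1 to 414.1 CPM, with no overlap. All 12 B cell genes were positive, with a median of 0.18 and none called. Of 7 genes of mast cells and eosinophils, 5 were negative and Kit (-0.54) was called lower, with summed levels of 56.1 to 64.2 CPM in the pLPD offspring against 73.4 to 85.2 CPM, without overlap. All 14 genes of resident adipose macrophages were negative, with a median of -0.64 and summed levels of 678.3 to 876.8 CPM against 1076 to 1292 CPM. Of these 14, 6 were called lower: Cd163 at -0.70, Clec10a at -0.83, Folr2 at -0.70, Cd209f at -1.24, Retnla at -1.65 and Gas6 at -0.79. The calls of the wider lists, here and below, were not examined with the exon share as a covariate or with a mouse left out. Over all genes, 1 was called higher and 10 lower in F1 with the exon share as a covariate.

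Among the called genes of the surrounding pathways in F1 was Maf (-0.50), a transcription factor of mature macrophages, which was lower. The lists of myeloid transcription factors and of complement genes held called genes in F1 and are not described further here. The protease Ctsd (-0.63) and Grn (-0.42) were lower among 17 lysosomal genes, 16 of them negative. Spn (0.57) was higher and Fn1 (-0.80) lower among 9 genes of the blood monocyte list. Fn1 was at 995 to 1226 CPM in the offspring of CD fathers, whereas Ly6c2 of that list was at most 30.1 CPM in any library. The cells that these reads came from were not determined. No gene was called among 7 genes of the Csf1 axis, 7 monocyte chemokines, 18 of Toll-like receptor signalling, 14 of Fc receptor and Trem signalling, 5 of the NADPH oxidase, 11 of lipid-associated macrophages, 13 of dendritic cells or 3 of neutrophils. At an unadjusted p under 0.05, these lists held 2, 3, 2, 2, 0, 3, 2 and 0 lower and 0, 0, 0, 0, 1, 0, 1 and 1 higher genes, in the same order. 

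Markers of other tissue cells differed too. Krt18 was at 0 to 0.311 CPM in the pLPD offspring and at 1.85 to 4.58 CPM in the other group, and Krt8 at 0 to 0.542 and 2.29 to 3.47 CPM; both encode epithelial keratins and were called lower. All 6 endothelial genes and all 7 progenitor genes had negative values with none called, with medians of -0.37 and -0.29. The 8 adipocyte genes had a median of 0.12 with none called. The part of these cells in the result was not tested.

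The second comparison asked whether the LPD was accompanied by a different level of the same genes in the mice that ate it. None of the 32 genes was called in F0 in the main edgeR fit, with DESeq2 or with limma. Of all 14581 genes tested, 2.5% were called in the main edgeR fit, 1.18% higher and 1.32% lower. At an unadjusted p under 0.05, 2 were higher and 2 lower, where 7.53% of all genes were higher and 8.2% lower. The fold change was positive for 23 and negative for 9, where 50.1% of all genes were positive. The median was 0.071, and over all genes it was 0.00035. Every LPD-fed mouse lay above every CD-fed mouse in 8 of the 33 genes and below in 6, and 19 overlapped; over all genes tested these shares were 22.9% above and 23.6% below. The smallest p that 2 mice against 2 allow in an exact permutation test is 0.33.

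The gene with the smallest p in F0 was Ccr2, at 19.7 and 23.6 CPM in CD-fed mice and 29.5 and 32.0 CPM in LPD-fed mice. Its log2 fold change was 0.50 (SE 0.13, edgeR adjusted p = 0.0868). Ccr2 was called without a filter on low counts, with the exon share as a covariate or with the replicate number as a block. These fits called 633, 473 and 656 of all genes higher, in the same order, against 172 in the main edgeR fit. Cd14, the co-receptor for lipopolysaccharide, was at 17.2 and 16.6 CPM against 12.1 and 12.2 CPM, a value of -0.48 (SE 0.14, adjusted p = 0.127). Csf1r was at 205.5 and 227.9 CPM against 192.0 and 176.8 CPM, a value of -0.23 (SE 0.10, adjusted p = 0.303). Trem2 was at 1.56 and 1.20 CPM against 2.31 and 2.69 CPM, a value of 0.85 (SE 0.37, adjusted p = 0.312). In each of these the pair of LPD-fed mice lay on 1 side of the CD-fed pair, with no gene past the threshold.

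The 3 C1q genes had values of -0.21, -0.20 and -0.19 in F0, with adjusted p between 0.342 and 0.404. Adgre1 had a value of 0.05, Siglec1 -0.02, Lyz2 0.10 and Fcgr1 0.12, and these overlapped between the F0 groups. Of the 14 resident macrophage genes, 13 were negative in F0 and 3 were called lower: Cd163 at -0.47, Clec10a at -0.44 and Cbr2 at -0.68. Among lipid-associated macrophage genes, Mmp12 was higher at 3.27, from 0.782 and 0.798 CPM in the CD-fed mice to between 6.50 and 8.99 CPM in the LPD-fed mice, and Apoc1 was higher at 0.80. Of the other lists in F0, Lbp (1.20) and Irak2 (0.68) of Toll-like receptor signalling and Cebpb (0.55), a transcription factor of myeloid cells and adipocytes, were higher, as was the B cell gene Ms4a1 (0.46). The chemokine Cxcl12 (-0.43), the complement protease C1ra (-0.44) and the transcription factor Irf4 (-0.68) were lower. So were Ace (-0.58), from the list of blood monocytes, and the progenitor gene Dcn (-0.62). Of 7 skeletal muscle genes, 5 were lower: Acta1 (-1.04), Myh1 (-2.54), Myh2 (-3.85), Tnnt3 (-1.24) and Myh7 (-5.65). The 7 genes had a summed level of 1375 to 2097 CPM in CD-fed and 654.8 to 899.5 CPM in LPD-fed mice; their part in these values was not tested.

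The difference between the responses was tested as an interaction in a fit of all 10 libraries. Only Adgre1 passed the threshold: its response in F1 minus that in F0 was -0.70 (SE 0.14, edgeR adjusted p = 0.0353), and 1.25% of all 15111 genes tested were called, 0.893% with a negative and 0.357% with a positive difference. Of the 32 genes, 29 had a negative difference, where 49.6% of all genes had a positive one. At an unadjusted p under 0.05, 19 were negative and none positive, where 7.58% of all genes were negative and 4.91% positive. The median was -0.52, beside -0.0028 over all genes. Close to the threshold were Tyrobp at -0.75 (adjusted p = 0.0612), Siglec1 at -0.54 (adjusted p = 0.0613), Fcgr3 at -0.81 (adjusted p = 0.0768), Ccr2 at -0.83 (adjusted p = 0.0772) and Lyz2 at -0.62 (adjusted p = 0.0820). For the other called genes of F1 the difference was -0.31 for Csf1r (adjusted p = 0.318), -1.50 for Fcgr1 (0.127), -0.53 for C1qa (0.309) and -0.52 for C1qc (0.326), so a difference between generations was not shown for them. The call of Adgre1 was lost in 7 of the 10 fits that left out 1 mouse: any of the 4 F0 mice, replicate 1 or 2 of the offspring of CD fathers, or replicate 2 of the pLPD offspring.

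The CD groups of both generations gave the last comparison, in which generation, age and the set of libraries cannot be told apart. Of the 32 genes, 4 were lower in the F1 mice and none higher (edgeR), where 8.78% of all genes were lower and 10.1% higher. Markers of other cells moved between the same groups: all 7 skeletal muscle genes were called lower in the F1 mice, with a median of -4.16 and a summed level of 75.8 to 150.2 CPM against 1375 to 2097 CPM, and all 8 adipocyte genes were negative with 4 called. Of 15 genes of T and NK cells 3 were called higher and none lower, as were 2 of 6 endothelial and 2 of 4 epithelial genes. Of 14 genes of resident macrophages, 2 were called lower and none higher. Their part in the result was not tested. Gpnmb, a glycoprotein of lipid-laden macrophages, was at 7.68, 8.90 and 11.8 CPM in the F1 mice and at 22.1 and 29.3 CPM in the F0 mice, a value of -1.45 (SE 0.19, adjusted p = 0.000263). Lyz1 was at 37.1 and 43.7 CPM in the F0 mice, a value of -0.88 (SE 0.19, adjusted p = 0.00589). Tlr4 was at 31.1, 37.0 and 33.6 CPM against 43.5 and 49.9 CPM, a value of -0.46 (SE 0.11, adjusted p = 0.0108). Fcgr2b was at 38.8, 41.1 and 40.8 CPM against 53.3 and 54.4 CPM, a value of -0.42 (SE 0.096, adjusted p = 0.00877). The F1 and F0 mice did not overlap in any of these 4 genes, nor in others of the list that were not called, such as Irf8 and Cd68. The share over all genes was not counted for this comparison. Without replicate 2 of the CD-fed F0 mice, only Gpnmb was called. A gene was called higher in F1 when 1 F1 mouse was left out: Lyz2 without replicate 1 of the offspring of CD fathers, Fcgr1 without their replicate 3, and Irf8 without replicate 1 or without replicate 3 of the pLPD offspring.

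The lysozyme pair differed in its ratio between generations. Lyz1 in RPKM was 9.97% to 11.5% of Lyz2 in the 4 F0 mice and 3.07% to 5.54% in the 6 F1 mice. Lyz2 itself had a value of 0.33 between the CD groups (adjusted p = 0.0613). The median of the 32 genes was 0.034, beside 0.0084 over all genes, and 17 of the 32 were positive, where 50.9% of all genes were.

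**Figure D5:**
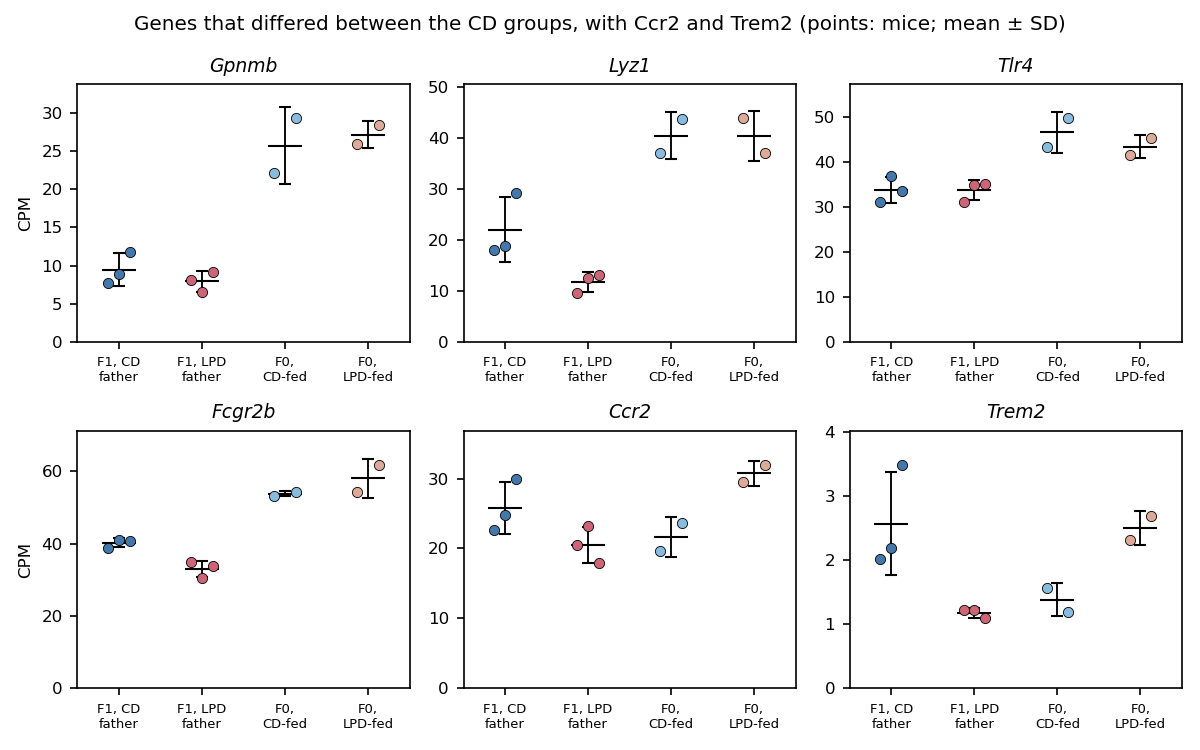
CPM of Gpnmb, Lyz1, Tlr4 and Fcgr2b, called between the CD groups, and of Ccr2 and Trem2, in each mouse (points), with mean (line) and SD (bars), n = 3 in F1 and n = 2 in F0. Gpnmb lies at 6.50 to 11.8 CPM in the F1 mice and at 22.1 to 29.3 CPM in the F0 mice.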

How the data were processed

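Total RNA from iWAT was depleted of rRNA, made into directional libraries and sequenced as paired 36-base reads. Mapping by the authors was to mm10, with CLC Genomics Workbench, per the study's methods. The annotation release and counting settings are not given in the sources used here. The deposited counts are unnormalized reads of each gene, taken over exons, over exons with introns, or over uniquely matching reads. The deposited RPKM values are the authors' exon reads scaled by exon length and library size. The deposited TPM values were not used.

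Total exon reads, 6351075 to 10044546 per library, were compared in R 4.3.3 with edgeR 4.0.16 (filterByExpr, TMM, quasi-likelihood F test, two-sided, Benjamini-Hochberg adjustment over all genes tested, threshold 0.05). F1 and F0 were fitted apart, and the interaction and the CD groups in 1 fit of all 10 libraries. CPM (counts scaled to a common library size) were scaled by TMM over all 10 libraries. A standard error is the log2 fold change divided by the square root of F. Mice are separate animals. The fits were tested on simulated data. At a 1.5-fold change, 55.2% of 67 changed genes were recovered in F1 (14047 genes) and 58.2% of 67 in F0 (14595 genes). The simulation gave every gene the same spread and changed only well-counted genes, so it does not cover genes with few reads, such as Trem2.

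The members, lists and tests were chosen with earlier results of these data known. All genes of the list are accounted for. Full values are given for those called, the 4 with the smallest p per diet comparison, the 5 highest by RPKM and the lysozyme pair. Genes of the wider lists are named where called in a diet comparison or the interaction, except for some that are not reported here; in the comparison of the CD groups they are given by counts for some lists of cell markers. Same-numbered mice were checked for pairing: correlations of their deviations were 0.0736, 0.0091 and 0.0151 in F1, so the numbers were not taken as pairs. Alternatives were DESeq2 1.42.0, its size factors in edgeR, other filters, other count columns, all 4 groups in 1 fit, limma 3.58.1 on log2 RPKM plus 0.1 or 1, the exon share as a covariate, the replicate number as a block, and each mouse left out.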

Additional observations from a re-analysis of the deposited data

Results flagged for a closer look

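Over the myeloid list and the wider lists, 13 genes had a diet difference that was not the same in F1 and F0. This was by the interaction test (edgeR, adjusted p under 0.05, all 10 libraries), in which 1.25% of all 15111 genes tested were called. The tested genes of the wider lists were not counted together, so the 13 have no share to set beside this. The F1 mice did not eat the LPD themselves, and generation, age and the set of libraries cannot be told apart. Genes of the wider lists were not refitted under the alternatives. Values are the F1 response minus the F0 response on the log2 scale. Adgre1 was the one gene of the myeloid list, at -0.70. In the lists of signalling and transcription, the difference was -1.03 for Csf2ra, a receptor chain for granulocyte-macrophage colony-stimulating factor, -1.53 for Lbp, which binds lipopolysaccharide, -0.88 for Irak2, -0.55 for Sirpa, -0.98 for Cebpb and 0.97 for Irf4. Cebpb was higher in LPD-fed F0 mice, at 112.5 to 119.1 CPM against 78.2 to 80.1 CPM, and at 120.8 to 149.1 CPM in pLPD offspring against 173.9 to 201.7 CPM. Cfd, a complement protease made by adipocytes, had a difference of 1.13. Among macrophage markers, the difference was -1.25 for Apoc1, -3.74 for Mmp12 and -0.93 for Cd209f. The skeletal muscle genes Myh2 and Myh7 had differences of 4.01 and 7.10; Myh7 was at 17.5 to 22.4 CPM in the CD-fed F0 mice and at most 1.07 CPM in every other library.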

How the results depend on the processing

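No direction of a median or of a called gene of the myeloid list reversed in F1, F0 or the interaction under any alternative. In F1, 7 genes of the list were called lower; the count was 14 with no filter on low counts, 12 with all 4 groups in 1 fit, 4 with intron reads included, 4 with limma on log2 RPKM plus 0.1 and 0 with the exon share as a covariate, and 0 to 7 with each mouse left out. The F1 median was -0.62 with limma on log2 RPKM plus 0.1, where the median of all genes was -0.15, -0.38 with the exon share, and -0.53 to -0.40 with each mouse left out. In F0, 1 gene (Ccr2) was called higher with no filter, the exon share or the replicate block, the count was 0 with each mouse left out, and the median was 0.020 and 0.016 with limma (0.1 and 1 added) and 0.0024 to 0.10 with each mouse left out. In the interaction, 3 genes were called lower with DESeq2, 12 with no filter, 2 with unique reads, 0 with either limma fit and 0 to 2 with each mouse left out, and the median was -0.61 and -0.46 with limma and -0.62 to -0.43 with each mouse left out. Between the CD groups, 1 gene was called higher with DESeq2, 3 with no filter and 1 with intron reads; with each mouse left out, 0 to 1 was called higher and 1 to 5 lower. The median there was -0.10 and -0.071 with limma, where all genes had -0.12 and -0.071, -0.12 with the replicate block, -0.023 with intron reads, and 0.011 to 0.096 with each mouse left out. With the replicate block, 10 genes were called lower in F1, Fcgr3 took the place of Adgre1 (adjusted p = 0.0602) in the interaction, Fcgr2b (adjusted p = 0.147) gave way to Cd14 between the CD groups, and no other call of the list was lost. Over all genes, F1 calls ranged from 11 with the exon share to 798 with no filter. The causes were not tested. Trem2, Vsig4 and Fcgr1 rest on few reads, as does Mmp12 in F1 and in the CD-fed F0 mice.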
